A study of Mus musculus with 5 samples.

Results

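Immediate early response genes are transcribed within minutes of a stimulus, without new protein synthesis. The 10 followed here were Fos, Fosb, Jun, Junb, Egr1, Egr2, Ier2, Ier3, Nr4a1 and Dusp1. They were chosen by name as genes induced by adrenergic drive or by handling of the tissue, and they are 10 of the 52022 genes with a transcript in the files. All 10 were among the 16450 genes tested, that is, genes with at least 10 estimated counts in at least 2 mice.

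The RNA-seq libraries came from interscapular brown adipose tissue (BAT) of 5 mice, all labelled male, on a C57Bl/6J background, aged 10 to 12 weeks. In 3 of them, the ATF4 BKO mice, floxed Atf4 alleles were recombined by a Cre driven by the Ucp1 promoter. The other 2, the WT littermate controls, carried the floxed alleles without the Cre. All 5 mice were acclimated at 30 °C for 7 days and then kept at 4 °C for 3 days with food available, so no library shows a warm mouse and the genotype comparison is made within the cold. Ucp1-Cre acts in brown and beige adipocytes, so endothelial, immune, nerve and stromal cells of the same tissue keep an intact Atf4.

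In brown fat, noradrenaline from sympathetic nerves acts on β-adrenergic receptors, raises cAMP and activates protein kinase A, which phosphorylates CREB at cAMP response elements (CREs) in promoters. Fos, Jun and Egr genes also respond to MAP kinases through serum response factor and its Elk partners, and their mRNAs decay quickly, so their level reflects recent rather than sustained stimulation. The encoded proteins are themselves mostly transcription factors: Fos and Jun proteins pair to form AP-1, Egr proteins are zinc-finger factors and NR4A proteins are orphan nuclear receptors. ATF4 is a basic leucine zipper factor of the integrated stress response, a family relative of Fos and Jun.

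No immediate early response gene differed between genotypes after correction over all genes. Fos, an AP-1 subunit, was the only one whose level was higher in each of the 3 ATF4 BKO mice than in both WT mice. Its fitted fold was 2.38, with an unadjusted 95% interval from 1.13 to 5.01. The other 9 overlapped between genotypes. Of all genes tested, 8.95% were separated in the same way as Fos, so Fos alone in this set was near the share over all genes. Single mice, in both genotypes, set the highest and lowest values: 4 genes were highest in ATF4 BKO mouse 3, 3 in ATF4 BKO mouse 2 and 5 were lowest in WT mouse 1.

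The CRE is the sequence through which CREB acts, and 6 promoter windows are shown here because each holds at least a CRE half-site. RefSeq promoter windows on GRCm38.p6 ran from 250 bases before to 50 bases after the transcription start, 300 bases in all, and 8 of the 10 genes matched, all but Egr1 and Ier2. The sequences below are the 150 bases before the start, 5′ to 3′ on the strand of the gene, ended earlier where an exon of the gene begins in GENCODE M21. Capitals mark the CRE half-site (TGACG, or CGTCA on the other strand), the full CRE (TGACGTCA), the EGR site (GCGNGGGCG, either strand), the CArG box bound by serum response factor, and the TATA box (TATAAA).
Fos, chr12:85473740-85473889, plus strand: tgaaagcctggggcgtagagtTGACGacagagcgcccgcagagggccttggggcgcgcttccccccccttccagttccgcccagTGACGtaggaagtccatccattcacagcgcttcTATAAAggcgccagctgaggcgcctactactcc
Fosb, chr7:19310052-19310195, minus strand: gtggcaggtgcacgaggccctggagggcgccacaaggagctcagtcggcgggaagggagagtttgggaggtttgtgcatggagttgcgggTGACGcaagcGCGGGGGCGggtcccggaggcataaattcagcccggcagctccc
Junb, chr8:84978749-84978898, minus strand: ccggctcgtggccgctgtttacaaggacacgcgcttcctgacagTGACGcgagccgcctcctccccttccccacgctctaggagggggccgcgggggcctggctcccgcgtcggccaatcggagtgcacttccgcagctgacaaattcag
Egr2, chr10:67537719-67537868, plus strand: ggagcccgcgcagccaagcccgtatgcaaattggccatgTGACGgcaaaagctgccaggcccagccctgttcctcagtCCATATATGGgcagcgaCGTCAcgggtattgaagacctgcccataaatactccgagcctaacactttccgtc
Nr4a1, chr15:101266696-101266845, plus strand: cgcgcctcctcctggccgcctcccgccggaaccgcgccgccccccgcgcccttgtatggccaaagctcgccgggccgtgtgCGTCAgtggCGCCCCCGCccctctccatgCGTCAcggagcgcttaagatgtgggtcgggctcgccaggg
Dusp1, chr17:26508520-26508622, minus strand: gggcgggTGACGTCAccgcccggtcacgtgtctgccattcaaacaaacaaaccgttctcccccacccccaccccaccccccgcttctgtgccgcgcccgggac

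The Fos, Fosb and Junb stretches lie upstream of the annotated gene. Those of Egr2, Nr4a1 and Dusp1 precede internal starts and lie in introns of longer transcripts of the same gene. A CRE half-site was found in 6 of the 8 genes, at 1 start or more, while 20.8% of the 32851 promoter windows in the table hold one. In Fos the matches began 129 and 66 bases before the start, and in Nr4a1 4 matches began 233, 213, 69 and 40 bases before it. The full CRE, which contains the half-site on both strands, was found in Dusp1 alone, 143 bases before the start, and is held by 1.79% of windows. The EGR site was found in Fosb and Nr4a1 (5.55% of windows), the CArG box in Egr2 (1.63%), and the TATA box, searched on the sense strand, 33 bases before the start in Fos and at the start itself in Junb, outside the stretch printed (8.32%). The AP-1 site TGANTCA (7.81% of windows), the NR4A site AAAGGTCA (1.51%) and the ATF4 composite site TGATGNAA (3.97%), searched on both strands, were found in none of the 8. Each match is a description of letters in this window and not a measured binding site.

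The libraries held 24698337 to 32452751 estimated counts, and values are given as CPM, that is, counts relative to a library size scaled by TMM, unless stated. Atf4, the targeted gene, was at 32.6, 52.6 and 23.4 CPM in the ATF4 BKO mice, against 285 and 226 CPM for the WT mice, so its level followed the labels. Its log2 fold change was -2.82 (SE 0.34), with an edgeR adjusted p of 0.671, and DESeq2 called it. Mitochondrially encoded transcripts took 18.5 to 22.0% of counts in the knockouts and 15.1 to 15.6% in the WT mice. The library of ATF4 BKO mouse 1, labelled male, stood apart with 4598 Xist counts, against 0 to 7 in the others, and with 34 counts over 4 Y-linked genes, against 3284 to 4476. Sample names carried 2 prefixes, the first on ATF4 BKO mice 1 and 2 and WT mouse 1 and the second on ATF4 BKO mouse 3 and WT mouse 2, with no meaning given for them. Summed CPM of 12 brown adipocyte markers, Ucp1 among them, ranged from 21288 to 26957 over the ATF4 BKO mice, against 20478 and 22694 for the WT mice. P-values measure the spread between these 5 mice.

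By level per transcript length (TPM), the genes fell into 3 tiers. Dusp1, the phosphatase that inactivates MAP kinases, was far above the rest with a median of 75.0 TPM over the 5 mice and a range of 61.1 to 102 TPM that met no other gene's. Jun followed with a median of 21.0 TPM, then Nr4a1 at 13.6, Ier2 at 11.7, Ier3 at 10.4, Fos at 8.19, Junb at 7.33 and Egr1 at 6.69 TPM. Neighbours in the order from Jun to Egr1 overlapped over the 5 mice and are not ordered beyond their spread. Egr2, with a median of 0.790 TPM, and Fosb, with 0.329 TPM, overlapped each other and lay below every other gene in every mouse.

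**Figure D1:**
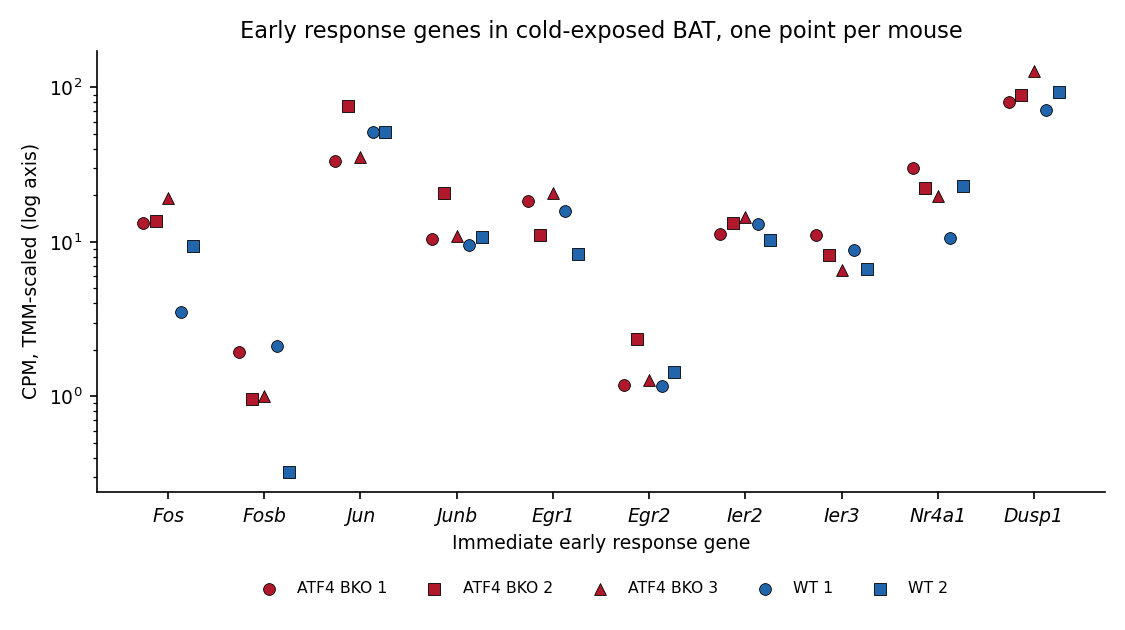
Level of each immediate early response gene in each mouse, in TMM-scaled CPM on a log axis, with ATF4 BKO and WT mice as separate points. The 3 ATF4 BKO points of Fos, from 13.2 to 19.2 CPM, lie above both WT points, 3.51 and 9.34 CPM, and the groups of the other 9 genes overlap.

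Fos, the AP-1 subunit most used as a mark of recent stimulation, was at 13.2, 13.6 and 19.2 CPM in ATF4 BKO mice 1, 2 and 3 and at 3.51 and 9.34 CPM in WT mice 1 and 2. These stand on 299, 382, 571, 111 and 317 estimated counts. The groups did not overlap, and WT mouse 1 was far below the other 4 mice. The means were 15.3 ± 3.37 CPM (SD, n = 3) and 6.43 ± 4.13 CPM (SD, n = 2), and the log2 fold change was 1.25 with a standard error of 0.44 and a 95% interval of 0.18 to 2.32. The unadjusted p in edgeR's quasi-likelihood test was 0.0287 and the Benjamini-Hochberg adjusted p was 0.911, while DESeq2 gave an adjusted p of 0.316. An exact two-sided permutation test on this single gene gave p = 0.1, the smallest that 3 mice against 2 can give, and 0.9 after adjustment over the 10 genes. Without WT mouse 1 the log2 fold change was 0.73, without WT mouse 2 it was 2.11, and without the library with Xist counts it was 1.35. Within the first name prefix it was 1.91 and within the second 1.03.

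The unadjusted p of Fos has to be read against its background: 5.23% of the 16450 genes tested had an unadjusted edgeR p under 0.05, against 1 of the 10 immediate early response genes. Likewise 8.95% of genes tested had every ATF4 BKO mouse above both WT mice, against the same 1 of 10, and 10.6% had every ATF4 BKO mouse below both, against 0 of 10. After adjustment edgeR called 1 gene of 16450 (0.00608%) and DESeq2 called 121 (0.736%), none of them an immediate early response gene.

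Fosb, the second Fos-family subunit, was at 1.94, 0.960 and 1.01 CPM in ATF4 BKO mice, against 2.12 and 0.324 CPM for the WT mice. The WT mice held both the highest and the lowest value, a ratio of 6.53. Counting error alone does not span them, since the 67 and 11 counts behind them have exact 95% Poisson intervals of 51.9 to 85.1 and of 5.49 to 19.7, which cover counting error only. The log2 fold change was 0.09 with an interval of -1.79 to 1.97, so a change of several fold in either direction was not detectable with this spread between mice. It was 2.00 without WT mouse 1, -0.72 without WT mouse 2 and -0.30 without ATF4 BKO mouse 1.

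Jun, the partner of Fos in AP-1, was at 33.5, 75.9 and 35.4 CPM in ATF4 BKO mice, against 51.7 and 51.9 CPM for the WT mice. The WT mice were nearly equal, and the ATF4 BKO mice lay on both sides of them, 2 below and mouse 2 above. Group means were 48.3 ± 23.9 CPM (SD, n = 3) and 51.8 ± 0.128 CPM (SD, n = 2), and the log2 fold change was -0.10 (interval -1.01 to 0.81, edgeR adjusted p = 0.980). Without ATF4 BKO mouse 2 it was -0.57, without ATF4 BKO mouse 1 it was 0.10 and without ATF4 BKO mouse 3 it was 0.08.

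Junb, a Jun-family subunit that also pairs with Fos, was at 10.4, 20.7 and 11.0 CPM in ATF4 BKO mice, against 9.61 and 10.8 CPM for the WT mice. ATF4 BKO mouse 2 again stood above the other 4, which lay between 9.61 and 11.0 CPM. The log2 fold change was 0.46 (interval -0.37 to 1.29, edgeR adjusted p = 0.930), and without ATF4 BKO mouse 2 it was 0.08. Jun and Junb share 6.39% and 6.52% of their 31-base words with transcripts of Junos, antisense to Jun with at most 42 counts, and of Prdx2, on the strand opposite Junb with up to 4706 counts.

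Egr1, a zinc-finger factor of serum and growth factor responses, was at 18.4, 11.1 and 20.7 CPM in ATF4 BKO mice, against 15.9 and 8.37 CPM for the WT mice. The levels did not follow genotype, since ATF4 BKO mouse 2 and WT mouse 2 were low and the other 3 mice were high. The log2 fold change was 0.46 (interval -0.45 to 1.37, edgeR adjusted p = 0.933), 1.02 without WT mouse 1 and 0.06 without WT mouse 2. Egr2, its relative known from myelinating Schwann cells, was at 1.19, 2.35 and 1.28 CPM in ATF4 BKO mice, against 1.17 and 1.44 CPM for the WT mice. Its highest value was again ATF4 BKO mouse 2, on 66 counts against 27 to 49 in the others, and the groups overlapped. The log2 fold change was 0.30 (interval -0.69 to 1.29, edgeR adjusted p = 0.950) and -0.06 without ATF4 BKO mouse 2.

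Nr4a1, an orphan nuclear receptor that is induced by adrenergic stimulation in fat and muscle, was at 29.9, 22.3 and 19.8 CPM in ATF4 BKO mice, against 10.6 and 22.9 CPM for the WT mice. WT mouse 2 lay inside the ATF4 BKO range and WT mouse 1 below it. WT mouse 1 was the lowest mouse for Fos too, where both WT mice lay below that range. The log2 fold change was 0.51 (interval -0.36 to 1.39, edgeR adjusted p = 0.920), 0.08 without WT mouse 1 and 1.16 without WT mouse 2. Within the name prefixes it was 1.28 and -0.21.

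Ier2 and Ier3 encode small proteins named for their early induction, and Ier3 is known for effects on cell survival. Ier2 was at 11.2, 13.2 and 14.4 CPM in ATF4 BKO mice, against 13.1 and 10.3 CPM for the WT mice. It varied least of the 10, with a ratio of 1.40 between the highest and the lowest of the 5 mice, and its fold lay within a 95% interval of 0.793 to 1.55. Ier3 was at 11.1, 8.18 and 6.63 CPM in ATF4 BKO mice, against 8.85 and 6.63 CPM for the WT mice, with a log2 fold change of 0.15 (interval -0.54 to 0.84). The groups of both genes overlapped, the edgeR adjusted p-values were 0.948 and 0.967, and the sign of both turned in TPM, to -0.03 and -0.04 on the log2(TPM + 1) scale.

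Dusp1, which closes the MAP kinase signal that induces the others, was at 80.0, 88.8 and 128 CPM in ATF4 BKO mice, against 71.0 and 93.7 CPM for the WT mice. ATF4 BKO mouse 3 was highest, and WT mouse 2 lay between the ATF4 BKO values. The log2 fold change was 0.27 (interval -0.33 to 0.86, edgeR adjusted p = 0.938), a fold within 0.795 to 1.82. It was 0.04 without ATF4 BKO mouse 3, 0.09 without WT mouse 1 and 0.47 without WT mouse 2. This is the gene of the set measured on the most counts, 1812 to 3812 a mouse.

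Kallisto divided the Dusp1 counts between 2 protein-coding transcripts and 2 that keep an intron. A further protein-coding transcript and a non-coding one were at 0 in every library. Intron-retaining transcripts took 20.9%, 14.1% and 25.5% of Dusp1 counts in the knockouts, against 12.2% and 15.7% for the WT mice, and the groups overlapped. The highest share was in ATF4 BKO mouse 3, which also had the highest total, with 973 of 3812 counts. In Nr4a1 the share was 1.45%, 3.72% and 7.87% in the knockouts, against 2.89% and 3.47% for the WT mice, also highest in ATF4 BKO mouse 3. These shares were singled out after the values were seen, and the division between overlapping transcripts is an estimate.

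**Figure D2:**
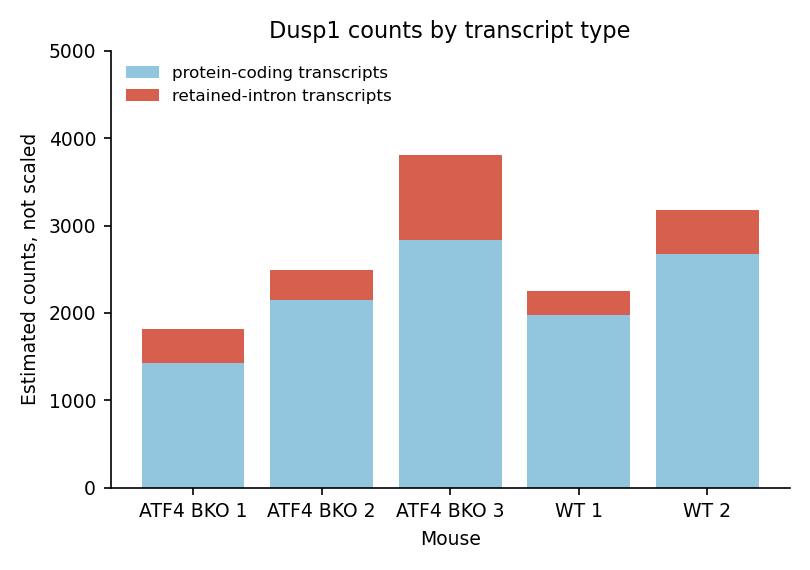
Estimated counts of Dusp1 in each mouse, not scaled for library size, as bars split into protein-coding and intron-retaining transcripts. Intron-retaining transcripts hold 274 counts in WT mouse 1 and 973 in ATF4 BKO mouse 3, and the protein-coding part runs from 1433 to 2839 counts.

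Across the set, the log2 fold change was above 0 in 9 of 10 genes, against 51.2% of all genes tested, and its median was 0.28, against 0.01 over all genes. The split was 8 to 2 with library totals as the only scaling and 6 to 4 on the log2(TPM + 1) scale. In those scalings the median of the 10 was 0.18 and 0.14, beside medians over all genes of -0.10 and -0.12. With 1 mouse left out, the split ran from 10 to 0 without ATF4 BKO mouse 3 to 6 to 4 without WT mouse 2. It was also 6 to 4 within each name prefix. Each mouse adds to all 10 values, so they are not independent, and the median carries no p.

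**Figure D3:**
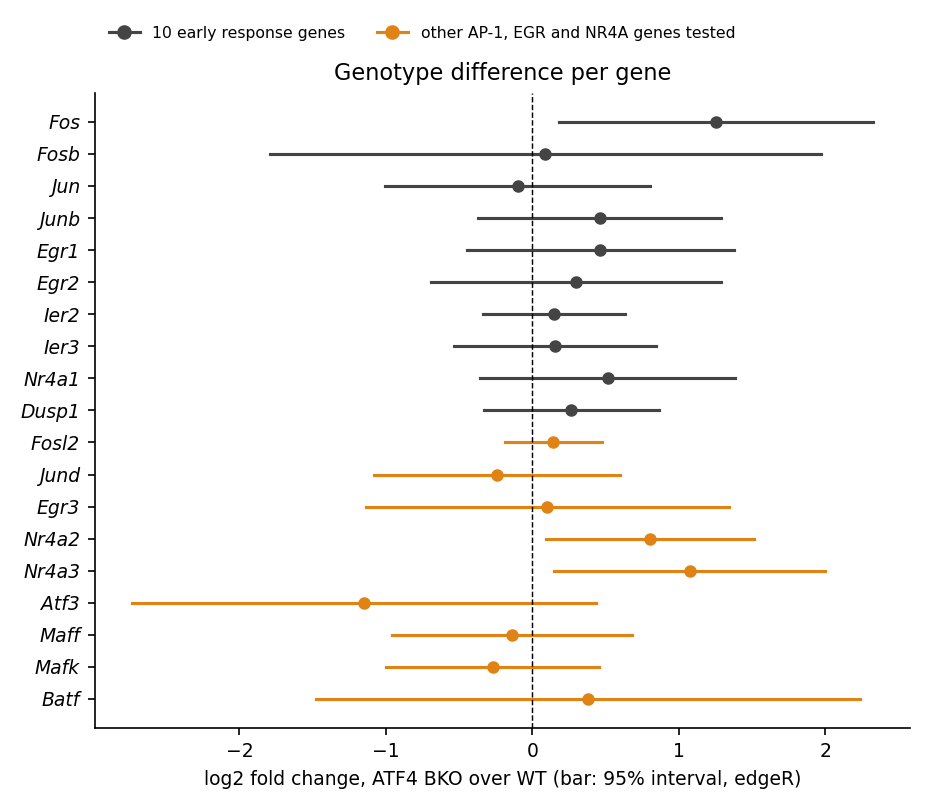
Log2 fold change, ATF4 BKO against WT, with a 95% interval derived from the edgeR fit, of the 10 immediate early response genes (grey) and of the 9 other AP-1, EGR and NR4A genes tested (orange). The interval of Fos, 0.18 to 2.32, lies above 0 and those of the other 9 grey genes include 0, and among the orange genes the intervals of Nr4a2 and Nr4a3 lie above 0.

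The genes did not move as a block from mouse to mouse. The map of deviations shows Fos, Dusp1, Egr1 and Ier2 highest in ATF4 BKO mouse 3, Jun, Junb and Egr2 highest in ATF4 BKO mouse 2, Nr4a1 and Ier3 highest in ATF4 BKO mouse 1, and Fosb highest in WT mouse 1. Among the lowest values, 5 were in WT mouse 1, namely Fos, Junb, Egr2, Nr4a1 and Dusp1, and 3 in WT mouse 2, namely Fosb, Egr1 and Ier2. Relative to the WT range, 4 genes were above it and 1 below in ATF4 BKO mouse 1, 5 above and 0 below in mouse 2, and 5 above and 2 below in mouse 3. The mean log2 CPM over the 10 genes was 3.59, 3.69 and 3.57 in the knockouts, against 3.27 and 3.19 for the WT mice.

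**Figure D4:**
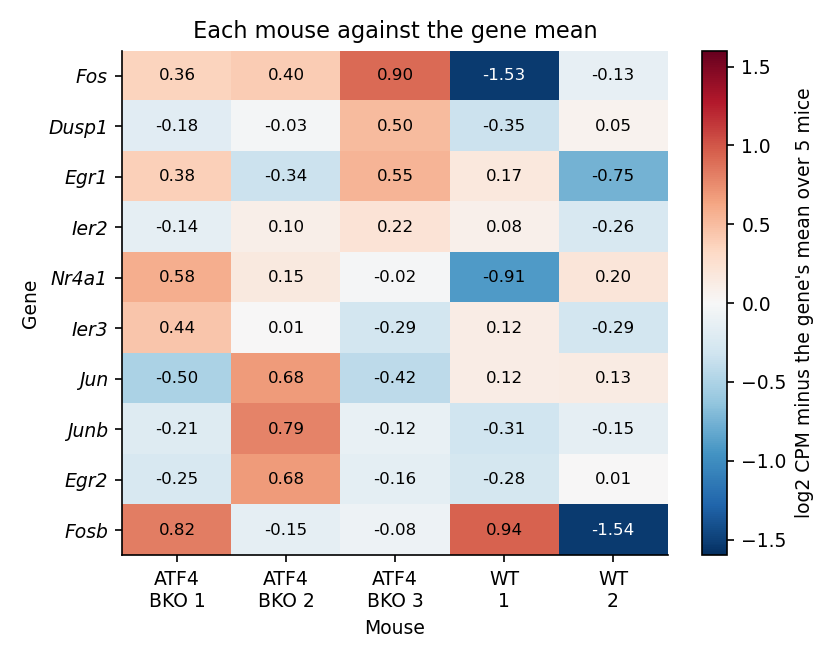
Deviation of each mouse from the mean over the 5 mice of the same gene, in log2 CPM, for the 10 immediate early response genes. The lowest cells are Fosb in WT mouse 2 (-1.54) and Fos in WT mouse 1 (-1.53), and Jun, Junb and Egr2 are high together in ATF4 BKO mouse 2 (0.68, 0.79 and 0.68).

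The spread between mice of the same genotype had a higher median for these genes than over all genes tested within their range of levels. That range is wide, so the comparison is not matched for level gene by gene. Among the 3 ATF4 BKO mice, the ratio of the highest to the lowest mouse had a median of 1.77 over the 10 genes (range 1.28 to 2.27), beside 1.32 over the 11527 genes tested whose mean lay within the range of the 10. Between the 2 WT mice the median was 1.33 (range 1.00 to 6.53), beside 1.18. In TPM the medians were 1.64 and 1.33, beside 1.42 and 1.20. These ratios describe the mice and were not tested.

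Relatives of the same factors gave mixed values. Of 11 other AP-1, EGR and NR4A factors, 9 were tested, with 5 log2 fold changes above 0 and 4 below. The median log2 fold change was 0.10, 2 had an unadjusted edgeR p under 0.05, and edgeR and DESeq2 called none. The median was -0.22 without ATF4 BKO mouse 2 and -0.06 without WT mouse 2. Nr4a2 was at 30.4, 15.5 and 23.8 CPM in ATF4 BKO mice, against 13.8 and 12.8 CPM for the WT mice. Nr4a3 was at 2.65, 5.58 and 3.60 CPM against 1.77 and 1.98 CPM. Both other NR4A receptors thus lay above both WT mice in every ATF4 BKO mouse, as did 8.95% of all genes tested, with log2 fold changes of 0.80 (SE 0.29) and 1.07 (SE 0.38) and an edgeR adjusted p of 0.911 each. Atf3, a stress-induced factor that ATF4 is known to activate, was at 10.6, 46.0 and 11.8 CPM against 58.8 and 42.6 CPM. ATF4 BKO mouse 2 lay within the WT range, and the log2 fold change was -1.15 (SE 0.65, edgeR adjusted p = 0.916). Fosl1 held 201 counts in WT mouse 1 and 1 to 9 in the others and was not tested, and Egr4 held 0 counts in every library.

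A wider list of 40 early response genes was also split. Of its 39 tested genes, 21 were higher and 18 lower, the median was 0.12, 6 had an unadjusted edgeR p under 0.05 (5.23% over all genes), and edgeR called none. Without ATF4 BKO mouse 2 the median was -0.10, with 17 higher and 22 lower. Gadd45a, a stress gene of growth arrest, was at 3.71, 8.36 and 2.99 CPM in ATF4 BKO mice, against 16.6 and 18.9 CPM for the WT mice. Its log2 fold change was -1.82 (SE 0.44), with an adjusted p of 0.760 in edgeR and of 0.0158 in DESeq2, the only one of the 39 that DESeq2 called. Klf2, a flow-induced factor of endothelium, was at 27.4, 22.9 and 29.0 CPM against 14.1 and 20.3 CPM. Klf4, Btg2, Sgk1, Zfp36l1 and Cebpd also had all 3 knockouts above both WT mice, making 6 of 39 beside 8.95% of all genes tested, with log2 fold changes of 0.47, 0.53, 0.72, 0.30 and 0.71. Dusp4, a phosphatase of MAP kinases like Dusp1, was lower in every ATF4 BKO mouse, at 63.8, 74.4 and 63.8 CPM against 88.5 and 104 CPM. Myc and Dusp5 had log2 fold changes of -1.32 and -1.40 with overlapping groups.

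Of 23 signal-dependent regulators of these genes, among them Srf and the Elk factors, 14 were higher and 9 lower, with a median of 0.02, 0 at an unadjusted edgeR p under 0.05 and no call by edgeR or DESeq2. Srf, the factor that binds the CArG box, had a log2 fold change of -0.48. Of 13 cAMP-induced genes, 11 were higher in ATF4 BKO mice, against 51.2% of all genes tested. The median was 0.45, 1 had an unadjusted edgeR p under 0.05, and neither tool called any. In 3 of the 13 every ATF4 BKO mouse lay above both WT mice (8.95% of all genes tested). Irf4, a factor induced by cAMP in brown fat, was at 14.9, 43.4 and 14.3 CPM against 4.90 and 8.90 CPM, with a log2 fold change of 1.81 (SE 0.60) and an adjusted p of 0.911 in edgeR and 0.105 in DESeq2. Of 14 heat shock genes, a group that also responds to tissue handling, 12 were lower and 2 higher, where 51.2% of all genes tested were higher. The median was -0.25, 1 had an unadjusted edgeR p under 0.05, and neither tool called any. In 4 of the 14 every ATF4 BKO mouse lay below both WT mice (10.6% of all genes tested). Hsp90aa1 was at 488, 440 and 375 CPM against 893 and 488 CPM, with WT mouse 1 apart from the other 4.

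**Figure D5:**
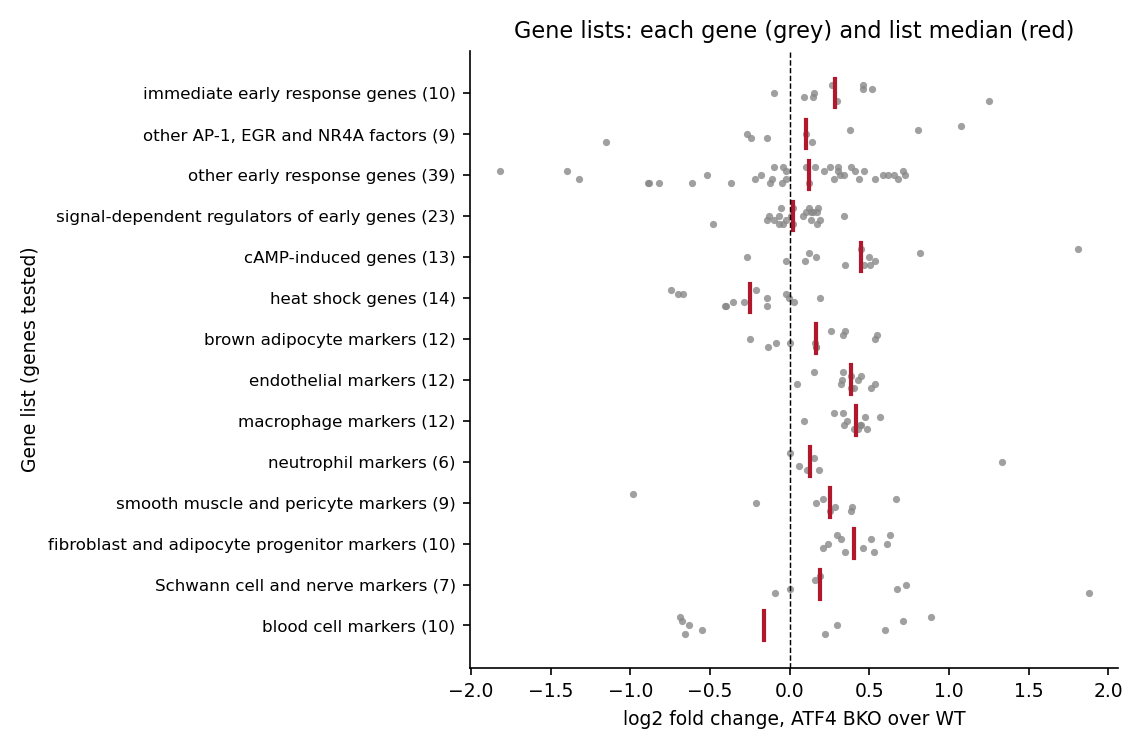
Log2 fold changes, ATF4 BKO against WT, of the genes of each list, 1 point a gene, with the median of each list marked. The 10 immediate early response genes have a median of 0.28, the cAMP-induced genes 0.45 and the heat shock genes -0.25. The skeletal muscle markers, with a median of -6.39, are left out of the plot for scale.

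Markers of other cells in the tissue also differed between the libraries. Skeletal muscle markers had a median log2 fold change of -6.39. In 19 of the 20, all 3 knockouts lay below the 2 WT values (10.6% of all genes tested). Their mean log2 CPM was -0.68, 0.84 and -1.15 in the knockouts, against 2.23 and 6.47 for the WT mice. Of the 20, edgeR called none, 19 had an unadjusted edgeR p under 0.05 (5.23% of all genes tested) and DESeq2 called 9 (0.736%), all lower. Their summed level was 348, 112 and 317 CPM in the knockouts, against 134 and 2767 CPM for the WT mice. The exception among the 20 was Mb, the oxygen-binding myoglobin, at 332, 68.7 and 304 CPM against 11.4 and 136 CPM. Mb thus made up most of the sum in the knockouts, so the sum does not show the separation of the other 19. Myh4, a myosin of fast muscle fibres, was at 0.088, 6.51 and 0.034 CPM against 18.1 and 604 CPM. With the mean level of the muscle markers as a covariate, the log2 fold change of Fos was 2.49 and that of Nr4a1 was 1.62, while Egr1 was at -0.74 and Fosb at -2.00. The median over the 10 genes was then 0.44, with a split of 6 higher and 4 lower and none called.

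All 12 endothelial markers had a log2 fold change above 0 (median 0.38), against 51.2% of all genes tested. In 7 of the 12 every ATF4 BKO mouse lay above both WT mice (8.95% of all genes tested). An unadjusted edgeR p under 0.05 was found for 4 (5.23%). Their summed level was 1466, 1482 and 1836 CPM in the knockouts, against 1147 and 1347 CPM for the WT mice. The groups were apart and ATF4 BKO mouse 3 was highest, as for Fos. All 12 macrophage and all 10 fibroblast markers also had a log2 fold change above 0 (medians 0.42 and 0.40), with overlapping groups for each gene. Macrophage markers summed to 888, 1509 and 544 CPM against 226 and 1233 CPM, and fibroblast markers to 2196, 2037 and 771 CPM against 850 and 1517 CPM. WT mouse 1, the mouse in which 5 of the 10 genes were lowest, had the lowest sums of macrophage, endothelial, brown adipocyte and smooth muscle markers. It was highest for heat shock genes and for blood cell markers, the latter at 3315 CPM against 1353 to 2057 CPM. Neutrophil markers, 6 of 9 tested, summed to 12.5 to 19.0 CPM over the 5 mice. Smooth muscle and Schwann cell markers had medians of 0.25 and 0.19, the latter 0.06 without WT mouse 2 and 0.44 without WT mouse 1. DESeq2 called 1 smooth muscle marker, the intermediate filament gene Des, also a gene of skeletal muscle, which was lower in ATF4 BKO mice (log2 fold change -0.98), and edgeR called none of any marker list. In bulk tissue, fewer cells of a type and less RNA per cell cannot be told apart, and the part of these cells in the levels of the 10 genes was not tested.

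The genes whose log2 CPM followed the mean of the 10 most closely over the 5 mice were Nxf1 (Pearson r = 0.999), Zfp319 (0.995), Tmem132a (0.994) and Plcl1 (0.993), of 13596 genes with a mean of at least 1 CPM. Nxf1, the mRNA export receptor, was at 73.9, 75.9 and 73.1 CPM in ATF4 BKO mice, against 68.2 and 66.8 CPM for the WT mice, a much narrower range than any of the 10. Pdgfb, an endothelial growth factor that recruits pericytes, was at 75.1, 76.9 and 75.0 CPM against 60.2 and 59.2 CPM (r = 0.988). With 5 points and this many candidates, the order is a description of these libraries.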

How the data were processed

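Total RNA of brown adipose tissue was sequenced from 5 mice as stranded mRNA libraries. Per the labels and the file headers, the authors quantified transcripts with Kallisto 0.45.0, mm10 being the build named in their processing notes, and deposited for each library estimated counts and TPM per transcript. TPM is relative to transcript length and to the library total. Of 141450 transcripts, 138191 matched GENCODE M21 (GRCm38) by identifier, and the 3259 others held 1.16 to 1.29% of counts. Estimated counts were summed per gene, rounded, filtered at 10 counts in 2 mice and tested with edgeR 4.0.16 in R 4.3.3 (TMM, quasi-likelihood test, genotype only, Benjamini-Hochberg over 16450 genes, threshold 0.05). The common dispersion was 0.0758. The standard errors are not edgeR output and were derived from the log2 fold change and the F statistic of the quasi-likelihood test. The 95% intervals used these with a t quantile at the same median degrees of freedom for all genes. DESeq2 1.42.0, limma 3.58.1 on log2(TPM + 1) or log2(TPM + 0.1), other scalings, no filter, each mouse left out, a replicate or prefix block and a muscle covariate were alternatives. The test was checked on counts simulated at this common dispersion for every gene, with 200 of 16147 genes changed by a log2 of 3. Both tools recovered all 200, with 10 false calls in edgeR and 25 in DESeq2. The spread between real mice differs by gene, so the check does not show what was detectable for the 10 genes. No 2 libraries agreed within sampling noise (lowest chi-square per degree of freedom 47.7).

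The 10 genes and all lists were chosen with earlier results of these data known, and all 220 listed symbols matched. The genes named from other lists were those called, those with all ATF4 BKO values on one side of both WT values and the 3 with the largest log2 fold change, of which the text gives a part. Other genes were named after their values were seen. The 10 most similar genes were ranked by Pearson r to the mean log2 CPM of the set, and 4 of them with Pdgfb are given.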

Additional observations from a re-analysis of the deposited data

Results flagged for a closer look

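Xist, the non-coding RNA of the inactive X chromosome, held 4598 counts in the library of ATF4 BKO mouse 1, which is labelled male, against 0 to 7 counts in the other 4 libraries. It was singled out as a signal outside the main measurement, above its level in the WT libraries (7 and 2 counts). Without that library the median log2 fold change of the 10 immediate early response genes was 0.36, that of Fos was 1.35 and that of Dusp1 was 0.40, while Fosb, Ier3 and Jun changed sign, to -0.30, -0.06 and 0.10.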

How the results depend on the processing

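No setting with a test called any immediate early response gene, and Fos, Junb and Dusp1 kept their sign in 16 of 16 settings. The comparisons within each name prefix, among these 16, had no test. With 2 WT mice and 3 residual degrees of freedom, intervals of the 10 genes were wide. The narrowest was that of Ier2, -0.33 to 0.63 in log2, and the widest that of Fosb, -1.79 to 1.97. A small difference was not detectable, and for Fosb a change of several fold was not detectable either. Atf4, the targeted gene, was itself not called by edgeR. The cause of the shifts below was not tested. The muscle covariate lay apart by genotype, so the calls and values of that fit cannot be assigned to genotype or to muscle.

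Genes called overall numbered 1 in edgeR, 121 with DESeq2, 8 with no filter, 0 on log2(TPM + 1), 2 on log2(TPM + 0.1), 0 with the replicate block, 0 with the prefix block, 200 with the muscle covariate and 0 to 23 with 1 mouse left out, the 23 without WT mouse 1. The replicate numbers paired the mice by number only (correlations of deviations 0.0473 and 0.2 in 2 pairs), and with the replicate block, over 4 mice, the median of the 10 genes was 0.35. With 1 mouse left out it was 0.24 to 0.36.

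Library totals gave medians of 0.18 for the 10 genes, -0.072 for the regulators and 0.14 for smooth muscle. TPM + 1 gave 0.14, -0.14, -0.42 for heat shock genes, -3.02 for skeletal muscle, -0.032 for brown adipocyte and 0.10 for smooth muscle. TPM + 0.1 gave 0.15, -0.14, -0.43, -0.032 for brown adipocyte and 0.10 for smooth muscle. The muscle covariate gave 0.44 for the 10 genes, 0.25 for regulators, 1.15 for cAMP-induced genes, -0.67 for heat shock, 0.24 for skeletal muscle, 0.60 for endothelial, 2.94 for macrophage, -0.45 for neutrophil, -0.13 for smooth muscle and 1.48 for fibroblast markers. Within the first prefix the medians were 0.17 for the 10 genes, 0.082 for regulators, 0.79 for cAMP-induced, -0.43 for heat shock, -2.11 for skeletal muscle, 1.90 for macrophage, 0.16 for smooth muscle and 1.10 for fibroblast. Within the second they were -0.060 for regulators, 0.051 for cAMP-induced, -0.058 for heat shock, -1.23 for macrophage, 1.42 for neutrophil and -0.82 for fibroblast.

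With 1 mouse left out, medians ran from -0.97 to -0.021 for blood cells, 0.12 to 0.90 for cAMP-induced, -0.43 to -0.066 for heat shock, -0.11 to 1.00 for neutrophil, -0.00084 to 0.10 for regulators, -7.59 to -2.14 for skeletal muscle and -0.27 to 1.59 for macrophage. Fosb turned to -0.019 with library totals, -0.053 on TPM + 1 and -2.00 with the muscle covariate, and ran from -0.72 to 2.00 with 1 mouse left out. Ier2 turned to -0.028 on TPM + 1, -0.031 on TPM + 0.1 and -0.15 with the covariate (-0.026 to 0.34 left out). Ier3 turned to -0.037, -0.041 and -0.19 under the same (-0.064 to 0.39 left out). Jun turned to 0.44 and Egr1 to -0.74 with the covariate, and with 1 mouse left out Jun ran from -0.57 to 0.10 and Egr2 from -0.063 to 0.47.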
